A study of Mus musculus with 12 samples.

Results

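The Slc25 genes encode the mitochondrial carriers, the largest family of transporters in the inner mitochondrial membrane. They were taken as every gene whose symbol starts with Slc25a, each read from its brightest probe set with a single gene symbol, which gave 40 of the 17097 genes measured. The 40 genes have 73 such probe sets, and 20 of them have several. The mean of 32 members over the 12 arrays lay above the median of all probe sets (5.89 on the log2 scale), and that of the other 8 did not. Other Slc25 genes were not analysed here.

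Cells of the mouse small intestine, untreated primary cells per the labels, had been separated into 6 populations by 3 levels of Mex3a (High, Low and Neg) within each of 2 levels of Lgr5 (High and Low). The Mex3a protein binds RNA, and Lgr5 is a receptor found on the stem cells at the base of the crypt. Each population came from the biological replicates MR793 and MR820, so n = 2 arrays per population and 12 arrays in all, made from 2000 cells each. No source used here gives the strain, the age, any reporter allele or the way in which Mex3a and Lgr5 were read in the sort. Wherever a pair of array values is given for a population, that of MR793 stands first.

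Carriers of this family move nucleotides, phosphate, amino acids, citric acid cycle acids, cofactors and ions between the cytosol and the mitochondrial matrix. The ADP/ATP carriers and the phosphate carrier supply ATP synthase, the aspartate/glutamate carriers bring reducing equivalents of cytosolic NADH into the matrix as a step of the malate-aspartate shuttle, and the acylcarnitine carrier feeds fatty acid oxidation. In the intestinal crypt, mitochondrial metabolism is known to differ between stem cells, Paneth cells and differentiated cells.

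The Lgr5 probe set differed between Lgr5 High and Lgr5 Low cells by 2.61 on the log2 scale (limma adjusted p = 0.000843), while the Mex3a probe set was not called in any of the 8 comparisons, with a difference of 0.29 between Mex3a High and Neg in Lgr5 High cells and of 0.12 in Lgr5 Low cells. The MR793 array of Mex3a High Lgr5 High cells differed from all others. It correlated with the other 11 at 0.896 to 0.916, against 0.971 to 0.996 among those 11, so results are given with 12 arrays and with the 11 others. With those 11, the Mex3a difference between Mex3a High and Neg in Lgr5 High cells was 0.03. The Mex3a probe set read 5.44 to 6.35 on the 12 arrays, near the median of all probe sets. The arrays lay on 3 strips. Strip 1 held Lgr5 High cells alone, strip 3 Lgr5 Low cells alone, and strip 2 held 4 arrays of MR820, with 2 of each Lgr5 gate. In bulk samples of this kind, fewer cells of a type and less RNA per cell cannot be told apart.

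On the array that stood apart, 26 of the 40 members (65.0%) had their lowest or highest value of all 12 arrays, and so did 74.6% of all genes. It was the lowest array for 17 members (42.5%, against 29.6% of all genes) and the highest for 9 (22.5%, against 45.0%). In 8 members it lay more than 1 log2 unit below the mean of the other 11 arrays, and in 2 members more than 1 above. Slc25a1, the citrate carrier, read 8.00 there and between 10.31 and 10.65 on the other 11 arrays. Slc25a51, the NAD+ carrier, read 7.32 there and between 9.46 and 9.81 on the others. Slc25a46, an outer-membrane member named here after its values were seen, had the largest departure, a difference of -2.76 from the mean of the others. Any difference of Mex3a High Lgr5 High cells rests on this array and 1 other.

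**Figure D1:**
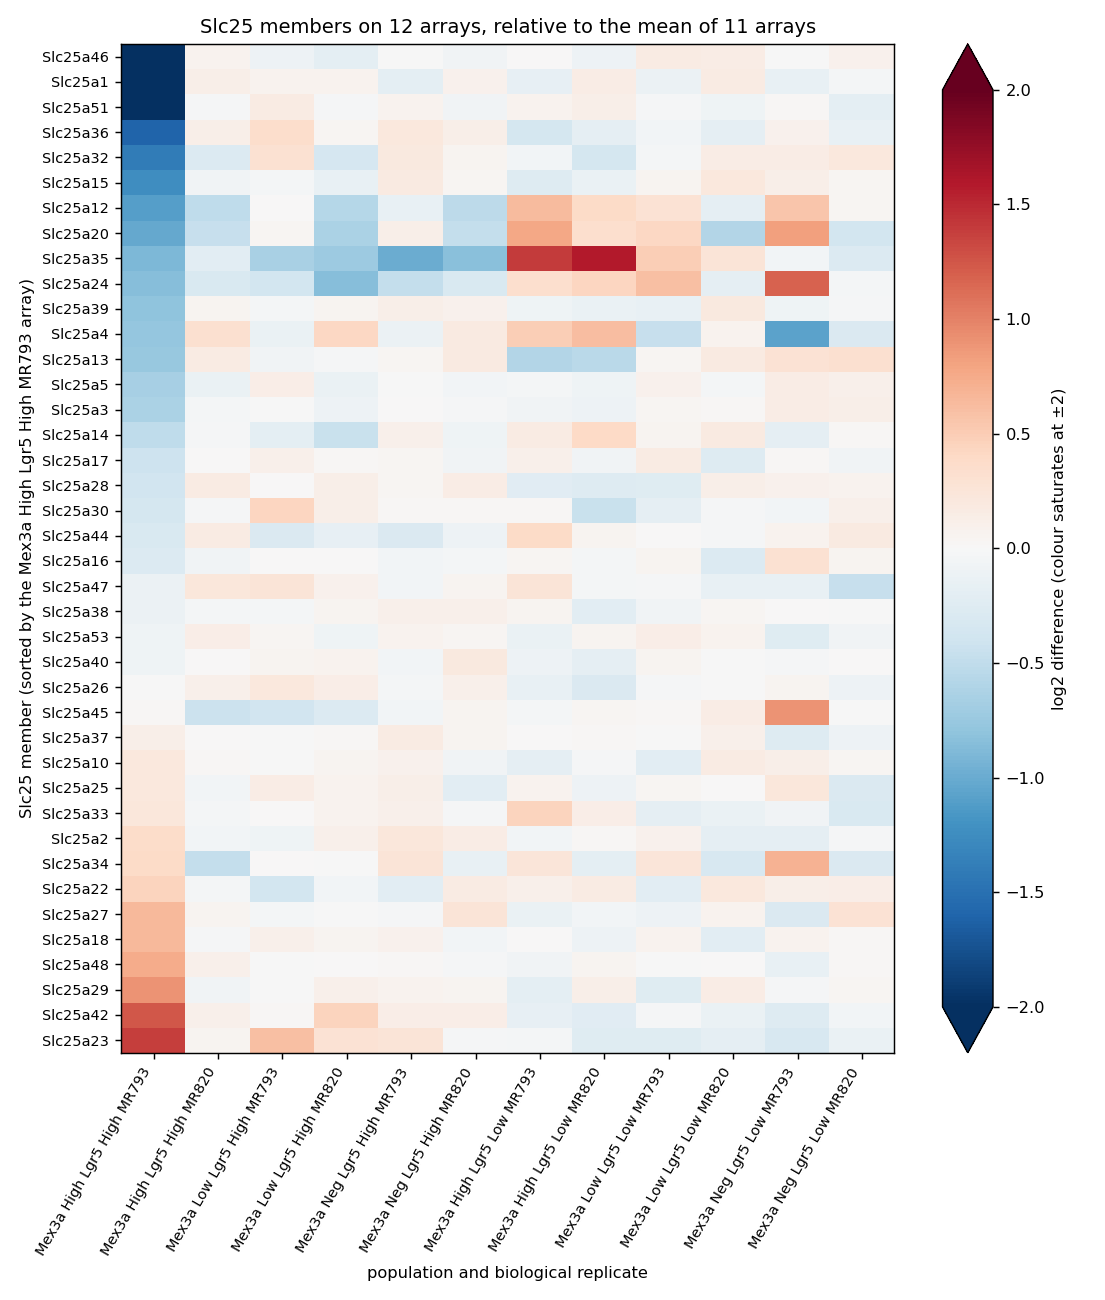
Each row is 1 of the 40 Slc25 members and each column 1 of the 12 arrays, coloured by the log2 difference from the member's mean over the 11 arrays other than Mex3a High Lgr5 High MR793, with colour saturating at 2 log2 units. The left column, the array that stood apart, holds differences from -2.76 to 1.38, and in the other columns the strongest colours belong to Slc25a35, Slc25a24 and Slc25a4.

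The members with the widest differences among Lgr5 Low cells included Slc25a4 and Slc25a13, and each has a paralogue that did not share its values. Slc25a4 and Slc25a5 are ADP/ATP carriers (the adenine nucleotide translocases 1 and 2), and Slc25a13 and Slc25a12 are the aspartate/glutamate carriers citrin and aralar. The promoter windows of these pairs, 300 bases each around the transcription start used in the RefSeq promoter table of build GRCm38.p6, are printed so that each pair can be set side by side. They lie at chr8:46211013-46211312 on the minus strand (Slc25a4), chrX:36795347-36795646 on the plus strand (Slc25a5), chr6:6217124-6217423 on the minus strand (Slc25a13) and chr2:71367706-71368005 on the minus strand (Slc25a12). Letters run 5′ to 3′ on the strand of the gene, and capitals mark the matches to CCAAT, the box bound by the factor NF-Y.
Slc25a4: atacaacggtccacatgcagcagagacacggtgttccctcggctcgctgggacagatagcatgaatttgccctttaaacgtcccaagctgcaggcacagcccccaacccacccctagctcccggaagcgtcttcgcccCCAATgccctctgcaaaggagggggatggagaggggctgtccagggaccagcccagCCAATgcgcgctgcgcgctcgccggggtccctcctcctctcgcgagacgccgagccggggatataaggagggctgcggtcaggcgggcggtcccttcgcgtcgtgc
Slc25a5: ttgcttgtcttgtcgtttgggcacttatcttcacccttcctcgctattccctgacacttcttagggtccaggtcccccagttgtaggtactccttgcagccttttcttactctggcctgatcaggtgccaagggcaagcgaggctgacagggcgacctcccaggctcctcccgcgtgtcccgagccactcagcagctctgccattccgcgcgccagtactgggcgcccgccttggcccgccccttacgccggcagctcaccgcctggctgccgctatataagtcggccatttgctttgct
Slc25a13: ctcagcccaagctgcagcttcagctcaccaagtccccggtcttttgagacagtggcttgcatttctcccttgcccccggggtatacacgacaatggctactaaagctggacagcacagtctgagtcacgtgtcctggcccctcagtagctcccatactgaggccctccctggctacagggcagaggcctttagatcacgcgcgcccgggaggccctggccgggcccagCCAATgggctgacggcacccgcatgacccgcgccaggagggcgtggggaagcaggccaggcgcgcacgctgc
Slc25a12: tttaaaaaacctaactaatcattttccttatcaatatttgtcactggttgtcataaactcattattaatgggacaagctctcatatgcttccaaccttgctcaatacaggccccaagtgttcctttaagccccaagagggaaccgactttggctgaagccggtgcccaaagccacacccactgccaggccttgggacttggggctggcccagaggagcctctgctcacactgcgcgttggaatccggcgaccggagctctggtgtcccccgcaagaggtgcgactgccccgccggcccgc

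The windows were searched on both strands for CCAAT, for the palindromic NRF-1 motif, for TATAAA and for the oestrogen-related receptor half-site AAGGTCA, which share no overlapping match in these 4 windows. Slc25a4 held 2 CCAAT matches and Slc25a13 held 1, while Slc25a5 and Slc25a12 held none of the 4 motifs. GC content was 65.7% for Slc25a4, 61.0% for Slc25a5, 65.0% for Slc25a13 and 54.3% for Slc25a12. Windows on chromosome 18, where Slc25a2 and Slc25a46 lie, were left out of the counts for members but not of those for all genes. The 31 members counted have 40 windows, since some genes have several. The other members, Slc25a35 among them, have no window in these counts. CCAAT was in 20 of the 40 windows, and in 37.4% of all 32851 windows. Counted by gene, 17 of the 31 members (54.8%) held it in at least 1 window, against 41.1% of all 27025 genes of the table. The NRF-1 motif was in 1 of the 40 windows, that of Slc25a3 (4.6% of all windows), TATAAA in 1 (13.6%) and AAGGTCA in 1 (4.72%). A match is a run of letters, and the arrays hold no measurement of binding.

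Among Lgr5 Low cells, Mex3a High against Mex3a Neg cells showed the widest differences of the family. Slc25a35 was higher in Mex3a High cells by 3.15-fold and was the only member called with 12 arrays. With 11 arrays Slc25a4 was also called, at 2.35-fold higher, and Slc25a13 was called lower, at 0.55 of its level in Mex3a Neg cells. The other 37 members differed by less than 0.5 on the log2 scale in either direction. The array left out belongs to neither population, so these differences are the same with 12 and 11 arrays. What changes without it is the estimate of their spread, and with it the calls.

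Slc25a35, a carrier for which no substrate was assigned here, read 7.99 and 8.18 in Mex3a High Lgr5 Low cells, 7.08 and 6.85 in Mex3a Low Lgr5 Low cells, and 6.53 and 6.33 in Mex3a Neg Lgr5 Low cells (log2, its only probe set). The 3 populations did not overlap, and Mex3a High was above Mex3a Low, and Mex3a Low above Mex3a Neg, in each replicate. Between Mex3a High and Neg the difference was 1.66 ± 0.24 (SE), with 1.46 in MR793 and 1.86 in MR820, and limma's adjusted p over all genes was 0.00527 with 12 arrays and 0.000118 with 11. It was also called with 12 arrays and the replicate as a block (adjusted p = 0.00842), but not with replicate and strip both as blocks (1.60, adjusted p = 0.0515). That 1 of 40 members (2.5%) was called with 12 arrays compares with 1.73% of all genes. With 11 arrays 3 of 40 (7.5%) were called, against 5.29% of all genes (905 genes, 694 higher and 211 lower in Mex3a High cells). Leaving out the MR820 array of Mex3a High Lgr5 Low ended the call (1.56, adjusted p = 0.0586), as did leaving out the MR820 array of Mex3a Neg Lgr5 Low (1.56, adjusted p = 0.0697).

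Slc25a4 read 9.38 and 9.51 in Mex3a High Lgr5 Low cells, 8.42 and 8.95 in Mex3a Low Lgr5 Low cells, and 7.83 and 8.59 in Mex3a Neg Lgr5 Low cells. Mex3a High arrays lay above the 4 others, which overlapped, and the SD was 0.54 in Mex3a Neg. The High against Neg difference was 1.23 ± 0.39 (SE), with 1.55 in MR793 and 0.91 in MR820. Its adjusted p was 0.305 with 12 arrays, 0.0381 with 11, 0.0372 with 12 arrays and the replicate as a block, and 0.000244 with 11 arrays and that block. With 12 arrays and the replicate as a block 2 of 40 members (5.0%) were called, against 2.03% of all genes. With strip as a block the difference of Slc25a4 was 1.07, and it was not called with 12 arrays (limma adjusted p = 0.446) or with 11. The second probe set of Slc25a4, with a mean of 4.79, differed by 0.01, so the difference rests on the brighter probe set.

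Slc25a5 read 11.57 and 11.52 in Mex3a High Lgr5 Low cells, 11.70 and 11.57 in Mex3a Low Lgr5 Low cells, and 11.74 and 11.70 in Mex3a Neg Lgr5 Low cells. Its difference between Mex3a High and Neg was -0.18 ± 0.09 (SE, 11 arrays, adjusted p = 0.372), and its 4 probe sets gave -0.18 to -0.11. The paralogues thus pointed in opposite directions in both replicates, and a difference between these genes was not tested.

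Slc25a13 read 6.43 and 6.47 in Mex3a High Lgr5 Low cells, 7.05 and 7.19 in Mex3a Low Lgr5 Low cells, and 7.30 and 7.34 in Mex3a Neg Lgr5 Low cells. The arrays of the 3 populations did not overlap, and the SD of a population was 0.10 in Mex3a Low and 0.03 in both others. The High against Neg difference was -0.87 ± 0.11 (SE, 11 arrays), with -0.87 in each replicate, and its adjusted p was 0.273 with 12 arrays and 0.00175 with 11. With the replicate as a block Slc25a13 was called with 11 arrays, but not with 12 (limma adjusted p = 0.193). With strip as a block and 12 arrays it was not called either (-0.92, limma adjusted p = 0.198). Slc25a12 read 8.28 and 8.04 in Mex3a High Lgr5 Low cells, 7.94 and 7.47 in Mex3a Low Lgr5 Low cells, and 8.21 and 7.70 in Mex3a Neg Lgr5 Low cells, a High against Neg difference of 0.21 ± 0.26 (SE, 11 arrays, adjusted p = 0.783).

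Slc25a32, which carries folate or FAD, had the second lowest difference among members of like sign in both replicates. It read 6.13 and 5.83 in Mex3a High Lgr5 Low cells and 6.33 and 6.40 in Mex3a Neg Lgr5 Low cells, a difference of -0.38 ± 0.20 (SE, 11 arrays, adjusted p = 0.379). With the replicate as a block and 11 arrays, 5 of 40 members (12.5%) were called, against 11.9% of all genes. The 2 additional members were Slc25a33, a pyrimidine nucleotide carrier, at 0.48 (adjusted p = 0.0347), and Slc25a3, the phosphate carrier, at -0.22 (adjusted p = 0.0134). With strip as a block, Slc25a35 alone was called with 12 arrays (1 of 40, against 1.9% of all genes), and Slc25a35 and Slc25a13 with 11 (2 of 40, against 4.46%). The median difference of the 40 members was -0.05, and that of all genes -0.01.

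**Figure D2:**
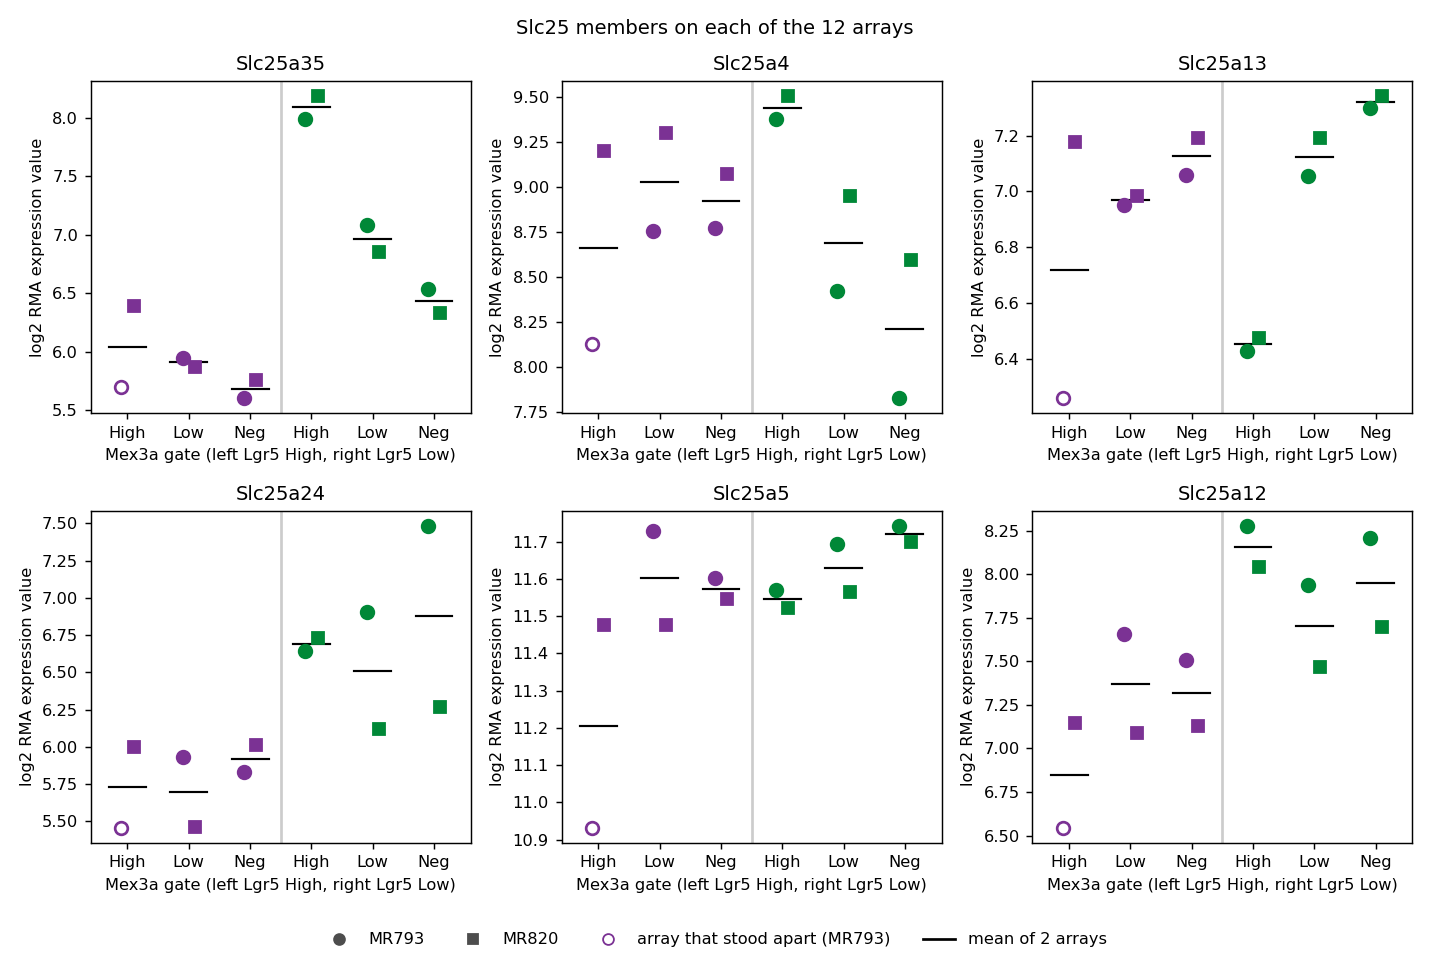
Each panel shows the log2 RMA value (vertical axis) of 1 Slc25 member on the 12 arrays, by Mex3a gate (High, Low, Neg) within Lgr5 High cells (left) and Lgr5 Low cells (right). Circles stand for MR793, squares for MR820, the open circle for the array that stood apart and bars for the mean of 2 arrays. Slc25a35 reached 7.99 and 8.18 in Mex3a High Lgr5 Low cells, and Slc25a13 had 6.43 and 6.47 there.

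Markers of tuft, enteroendocrine and Paneth cells moved with the Mex3a gate in the same arrays, while those of goblet cells did not. The mean log2 level of the tuft cell list (8 of 10 markers measured, among them Dclk1 and Trpm5) was 10.29 and 10.30 in Mex3a High Lgr5 Low cells, 8.35 and 7.42 in Mex3a Low Lgr5 Low cells, and 5.56 and 5.55 in Mex3a Neg Lgr5 Low cells. All 8 were called higher in Mex3a High than in Neg cells with 12 arrays, with a median difference of 5.03. The enteroendocrine list (10 of 10 measured, among them Chga and Neurod1) averaged 10.47 and 10.23 in Mex3a High Lgr5 Low cells, 9.14 and 7.85 in Mex3a Low Lgr5 Low cells, and 6.52 and 6.13 in Mex3a Neg Lgr5 Low cells, with 9 of 10 called higher in Mex3a High than in Neg. The Paneth list (4 of 8 measured) averaged 11.04 and 10.78 in Mex3a High, 9.995 and 10.15 in Mex3a Low and 7.42 and 8.35 in Mex3a Neg cells of the Lgr5 Low gate, with 3 of 4 called. All 7 measured mitosis markers had negative differences (median -0.49), of which 0 were called with 12 arrays and 2 with 11. Of 7 measured goblet markers 3 had positive differences (median -0.03), and 0 were called. None of the 8 measured enterocyte markers was called. Of 7 measured leukocyte markers 6 had positive differences (median 0.15), and Lyz2 and Ptprc were called higher in Mex3a High cells. The leukocyte list averaged 6.75 and 6.79 in Mex3a High, 6.47 and 6.43 in Mex3a Low and 6.00 and 6.24 in Mex3a Neg cells of the Lgr5 Low gate. The part of these cell types in the values of Slc25a35, Slc25a4 and Slc25a13 was not tested.

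**Figure D3:**
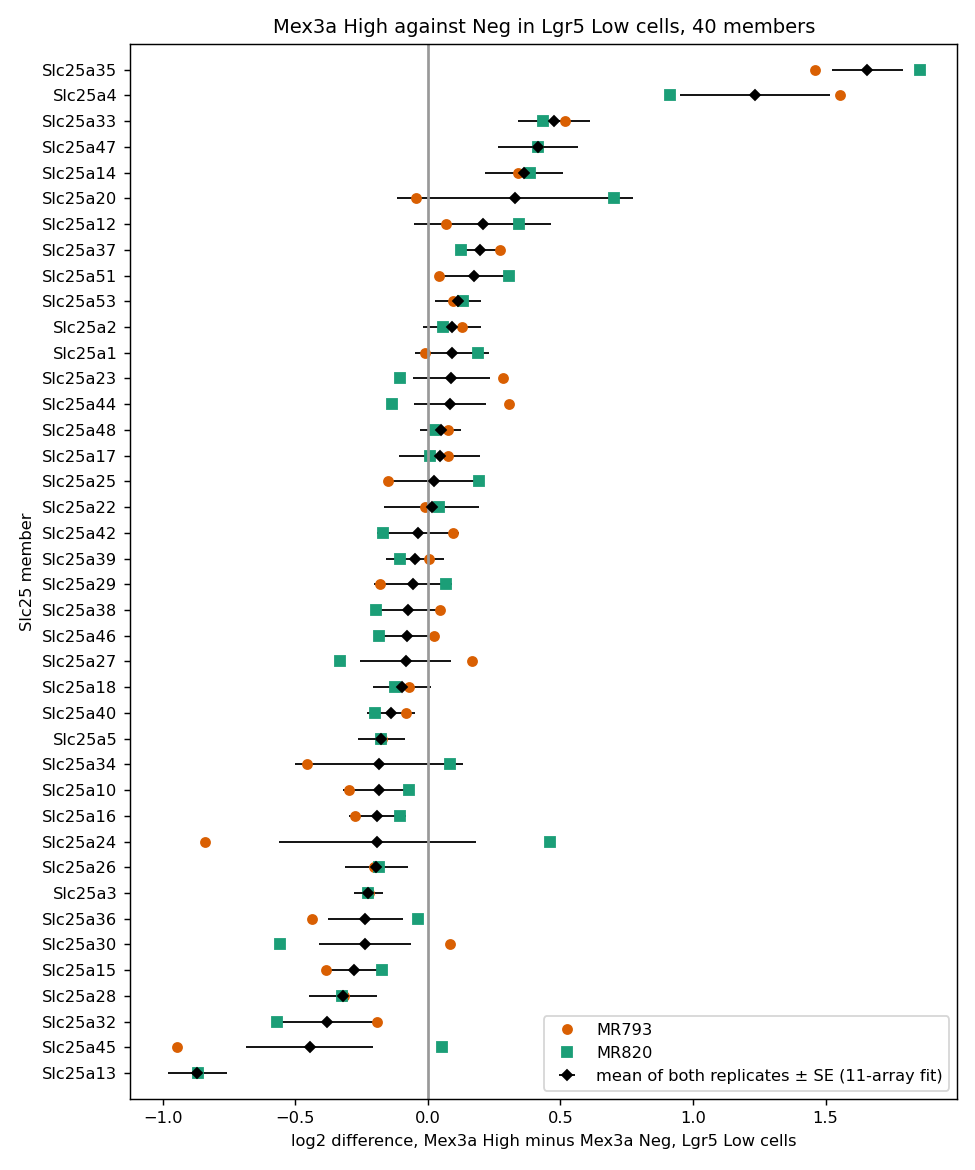
For each of the 40 Slc25 members (rows), the horizontal axis gives the log2 difference of Mex3a High minus Mex3a Neg in Lgr5 Low cells, in MR793 (circles), in MR820 (squares) and as the mean of both (diamonds) with its SE from the 11-array fit. Slc25a35 at 1.66 and Slc25a4 at 1.23 stand at the top and Slc25a13 at -0.87 at the bottom, with the other 37 within 0.5 of zero.

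The intermediate gate was compared with each end. For Mex3a High against Mex3a Low in Lgr5 Low cells, 0 of 40 members were called with 12 arrays (0.889% of all genes), where 3 members had an unadjusted p under 0.05, and 2 of 40 (5.0%) with 11 arrays (2.46% of all genes). Slc25a35 differed by 1.12 ± 0.14 (SE, 11 arrays), with 0.91 in MR793 and 1.33 in MR820, at an adjusted p of 0.00238 with 11 arrays and 0.0812 with 12. Slc25a13 differed by -0.67 ± 0.11 (SE, 11 arrays), with -0.63 in MR793 and -0.72 in MR820, at an adjusted p of 0.0136 with 11 arrays and 0.847 with 12. Slc25a4 differed by 0.75 ± 0.28 (SE, 11 arrays, adjusted p = 0.294), and was called with the replicate as a block and 11 arrays (adjusted p = 0.0107). Slc25a15, the ornithine carrier, read 10.13 and 10.26 in Mex3a High Lgr5 Low cells and 10.45 and 10.61 in Mex3a Low Lgr5 Low cells, a difference of -0.33 ± 0.10 (SE, 11 arrays, adjusted p = 0.176).

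With the replicate as a block and 11 arrays, 4 of 40 members were called between Mex3a High and Low, against 5.23% of all genes. With strip as a block the counts were 0 of 40 with 12 arrays (1.2% of all genes) and 2 of 40 with 11 (2.67%). The fourth member under the replicate block was Slc25a20, the carnitine/acylcarnitine carrier, at 0.65 (adjusted p = 0.0494). It read 9.31 and 8.88 in Mex3a High Lgr5 Low cells, 8.95 and 7.95 in Mex3a Low Lgr5 Low cells, and 9.36 and 8.18 in Mex3a Neg Lgr5 Low cells. The SD was 0.71 in Mex3a Low and 0.83 in Mex3a Neg cells, and MR793 was the higher in all 3 populations. The enterocyte marker list averaged 10.75 and 10.76 in Mex3a High Lgr5 Low cells, 10.59 and 10.03 in Mex3a Low Lgr5 Low cells, and 11.43 and 9.47 in Mex3a Neg Lgr5 Low cells, higher in MR793 in the Mex3a Low and Neg populations but not in Mex3a High, and its part in the values of Slc25a20 was not tested.

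For Mex3a Low against Mex3a Neg in Lgr5 Low cells, 0 of 40 members were called with 12 or 11 arrays, as against 0.0468% and 0.0936% of all genes. At an unadjusted p under 0.05 there were 2 members with 12 arrays and 4 with 11. The replicate block with 12 arrays called 0 of 40 (0.0643% of all genes). Slc25a35 differed by 0.53 ± 0.14 (SE, 11 arrays), with 0.55 in MR793 and 0.52 in MR820 (adjusted p = 0.566). Slc25a4 differed by 0.48 ± 0.28 (SE, 11 arrays, adjusted p = 0.997). Slc25a24, a calcium-regulated ATP-Mg/phosphate carrier, read 6.90 and 6.12 in Mex3a Low Lgr5 Low cells and 7.48 and 6.27 in Mex3a Neg Lgr5 Low cells, a difference of -0.36 ± 0.37 (SE, 11 arrays, adjusted p = 0.997), with -0.58 in MR793 and -0.15 in MR820. Slc25a20 differed by -0.32 ± 0.45 (SE, 11 arrays, adjusted p = 0.997), with -0.41 in MR793 and -0.23 in MR820.

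In Lgr5 High cells no Mex3a comparison called a member. For Mex3a High against Neg, 0 of 40 were called with 12 arrays (0.0% of all genes) and with 11 (0.0175%), with 3 members and 1 member at an unadjusted p under 0.05. Adding the replicate as a block called 0 as well (0.0292% of all genes with 12 arrays, 0.0819% with 11). For Mex3a High against Low, 0 of 40 were called with 12 arrays (0.0%) and with 11 (0.00585%), with 2 members at an unadjusted p under 0.05 each time. For Mex3a Low against Neg, whose differences do not use the array that stood apart although its variance does with 12 arrays, 0 of 40 were called with 12 arrays and with 11 (0.0% of all genes), with 0 members and 1 member at an unadjusted p under 0.05, and all 40 differences lay within 0.5. The replicate block with 11 arrays called 0 of 40 (0.0234%).

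With 11 arrays the highest difference of Mex3a High from Neg in Lgr5 High cells was that of Slc25a35, at 0.70 ± 0.17 (SE, adjusted p = 1.0), and with 12 arrays it was 0.36 ± 0.24 (SE, adjusted p = 0.505). Its difference was 0.09 in MR793 and 0.63 in MR820, and with 11 arrays and the replicate as a block it was 0.72 (adjusted p = 0.488). Several other differences that were wide with 12 arrays shrank or turned without the array that stood apart. Slc25a23, a calcium-regulated ATP-Mg/phosphate carrier, read 7.28 and 5.96 in Mex3a High Lgr5 High cells and 6.15 and 5.88 in Mex3a Neg Lgr5 High cells, a difference of 0.60 ± 0.35 (SE) with 12 arrays and of -0.06 ± 0.18 with 11. Slc25a36, a pyrimidine nucleotide carrier, read 7.42 and 9.13 in Mex3a High Lgr5 High cells and 9.23 and 9.14 in Mex3a Neg Lgr5 High cells, a difference of -0.91 ± 0.44 (SE) with 12 arrays and of -0.06 ± 0.17 with 11. Slc25a32 differed by -0.96 with 12 arrays and by -0.40 with 11, and Slc25a48 by 0.42 and by 0.11. The median difference of the 40 members was -0.15 with 12 arrays, where that of all genes was 0.07, and -0.03 with 11 arrays, where that of all genes was -0.01.

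Against Mex3a Low in the same gate, Slc25a22, a glutamate carrier, differed by 0.42 in Mex3a High cells with 12 arrays and by 0.18 with 11. Slc25a30, an uncoupling-protein-like carrier, differed by -0.46 with 12 arrays and by -0.30 with 11, and Slc25a48 by 0.42 with 12 arrays and by 0.10 with 11. Slc25a4 read 8.12 and 9.20 in Mex3a High Lgr5 High cells, 8.75 and 9.30 in Mex3a Low Lgr5 High cells, and 8.77 and 9.07 in Mex3a Neg Lgr5 High cells, where its 3 populations overlapped. Slc25a13 read 6.26 and 7.18 in Mex3a High Lgr5 High cells, 6.95 and 6.98 in Mex3a Low Lgr5 High cells, and 7.06 and 7.19 in Mex3a Neg Lgr5 High cells.

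Between Mex3a Low and Mex3a Neg cells of the Lgr5 High gate, Slc25a23 had the highest difference, at 0.33 ± 0.14 (SE, 11 arrays, adjusted p = 1.0). It read 6.50 and 6.18 in Mex3a Low Lgr5 High cells, above 6.15 and 5.88 in Mex3a Neg Lgr5 High cells. Slc25a30 differed by 0.25, Slc25a14, an uncoupling-protein-like carrier, by -0.33, and Slc25a45 by -0.33, none of them called.

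The difference of the Mex3a High against Neg change between the Lgr5 gates was tested as an interaction. With 12 arrays 0 of 40 members were called (0.398% of all genes, 2 members at an unadjusted p under 0.05), and with 11 arrays 0 of 40 (0.936% of all genes, 3 members). With 11 arrays and the replicate as a block, 2 of 40 (5.0%) were called, against 1.81% of all genes. With 11 arrays and strip as a block 0 of 40 were called (1.26% of all genes, 2 members at an unadjusted p under 0.05). Under the replicate block, Slc25a4 had an interaction of -1.18 ± 0.23 (SE, adjusted p = 0.0266), and Slc25a13 of 0.88 ± 0.17 (SE, adjusted p = 0.03). In that fit the Mex3a High Lgr5 High cells are represented by the MR820 array alone. On arrays of MR820, Slc25a4 differed between Mex3a High and Neg by 0.13 in Lgr5 High cells and by 0.91 in Lgr5 Low cells, and Slc25a13 by -0.015 in Lgr5 High cells and by -0.87 in Lgr5 Low cells. Over the tuft list, 7 of 8 markers were called lower in this interaction with 11 arrays (median -2.99). All 10 enteroendocrine markers had negative interactions there (median -3.39), with Gip, Isl1 and Neurod1 called, and Itln1 of the Paneth list and Ptprc of the leukocyte list were called lower as well. The part of these cell types in the interactions of Slc25a4 and Slc25a13 was not tested. Slc25a35 had an interaction of -1.30 ± 0.33 (SE, adjusted p = 0.328) with 12 arrays and of -0.95 ± 0.21 (SE, adjusted p = 0.108) with 11, with -1.37 in MR793 and -1.23 in MR820. It was not called with 11 arrays and the replicate as a block either (-0.94, adjusted p = 0.0663). The interactions of 3 other members shrank or turned without the array that stood apart: that of Slc25a51 was -1.35 with 12 arrays and -0.19 with 11, that of Slc25a42, the coenzyme A carrier, 0.57 and 0.00, and that of Slc25a23 0.52 and -0.15.

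Averaged over the Mex3a gates, Slc25a35 was lower in Lgr5 High cells than in Lgr5 Low cells, at 0.41 of its level there, and it was the only member called with 12 arrays. Slc25a23 was higher in Lgr5 High cells and was called with 11 arrays. Slc25a24 and Slc25a12 were each lower in Lgr5 High cells by over 0.5 on the log2 scale and were called with 11 arrays and the replicate as a block. With 12 arrays 1 of 40 members (2.5%) was called, against 1.38% of all genes, and with 11 arrays 2 of 40 (5.0%), against 5.12%. Slc25a35 alone was called with 12 arrays and the replicate as a block (1 of 40, against 2.04%).

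Slc25a35 read 5.70 and 6.39 in Mex3a High, 5.95 and 5.87 in Mex3a Low and 5.61 and 5.76 in Mex3a Neg cells of the Lgr5 High gate, so most of these arrays lay near the median of all probe sets. The highest Lgr5 High array, at 6.39, overlapped the lowest Lgr5 Low array, at 6.33. The difference of Lgr5 High minus Lgr5 Low was -1.28 ± 0.14 (SE) with 12 arrays (adjusted p = 0.00228), with -1.45 in MR793 and -1.11 in MR820. With 11 arrays it was -1.17 ± 0.08 (adjusted p = 0.000369). With strip as a block it was -0.99 and no longer called with 12 arrays (adjusted p = 0.678), and -1.08 with 11 (adjusted p = 0.165). Within strip 2, the Lgr5 High minus Lgr5 Low difference was -1.44, over 2 arrays each that hold different Mex3a gates. Strips 1 and 3 each held a single Lgr5 gate and give no value.

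Slc25a23 had a lowest, median and highest value of 5.88, 6.17 and 7.28 on the 6 Lgr5 High arrays, and of 5.58, 5.68 and 5.87 on the 6 Lgr5 Low arrays. The gates did not overlap, but their nearest arrays, at 5.88 and 5.87, were almost equal. The Lgr5 Low arrays all lay just below the median of all probe sets. The difference was 0.62 ± 0.20 (SE) with 12 arrays (adjusted p = 0.258) and 0.40 ± 0.09 with 11 (adjusted p = 0.0384). With strip as a block it was 0.14 with 12 arrays (adjusted p = 1.0) and 0.31 with 11 (adjusted p = 0.756), so the call was lost. Slc25a42 had 7.84, 7.96 and 9.07 on Lgr5 High arrays and 7.57, 7.68 and 7.80 on Lgr5 Low arrays, again without overlap, and a difference of 0.30 ± 0.10 (SE, 11 arrays, adjusted p = 0.119).

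Slc25a24 had 5.46, 5.88 and 6.01 on Lgr5 High arrays, near the median of all probe sets, and 6.12, 6.69 and 7.48 on Lgr5 Low arrays, without overlap. With 12 arrays its second probe set gave a difference of -1.41. For the probe set used, the difference was -0.82 ± 0.23 (SE, 11 arrays, adjusted p = 0.084). With 12 arrays it was -1.27 in MR793 and -0.55 in MR820. Leaving out the MR820 array of Mex3a Neg Lgr5 Low made it -1.11 (adjusted p = 0.0244). In all, 3 of 40 members (7.5%) did not overlap between the Lgr5 gates, against 3.04% of all genes with 12 arrays and 4.7% with 11.

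Slc25a12, aralar, had 6.55, 7.14 and 7.66 on Lgr5 High arrays and 7.47, 7.99 and 8.28 on Lgr5 Low arrays, and its gates overlapped. Its difference was -0.66 ± 0.16 (SE, 11 arrays, adjusted p = 0.051), and its dimmer probe set gave -0.08 with 12 arrays. With the replicate as a block and 11 arrays, 6 of 40 members (15.0%) were called, against 11.4% of all genes. These were Slc25a35 at -1.16, Slc25a24 at -0.75 (adjusted p = 0.0199), Slc25a12 at -0.59 (adjusted p = 0.000679) and Slc25a20 at -0.41 (adjusted p = 0.0286), lower in Lgr5 High cells, and Slc25a23 at 0.42 (adjusted p = 0.0104) and Slc25a36 at 0.32 (adjusted p = 0.0211), higher. With strip as a block 0 members were called with 12 or 11 arrays, as against 0 and 2 of all genes (0.0% and 0.0117%), with 1 and 4 members at an unadjusted p under 0.05.

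**Figure D4:**
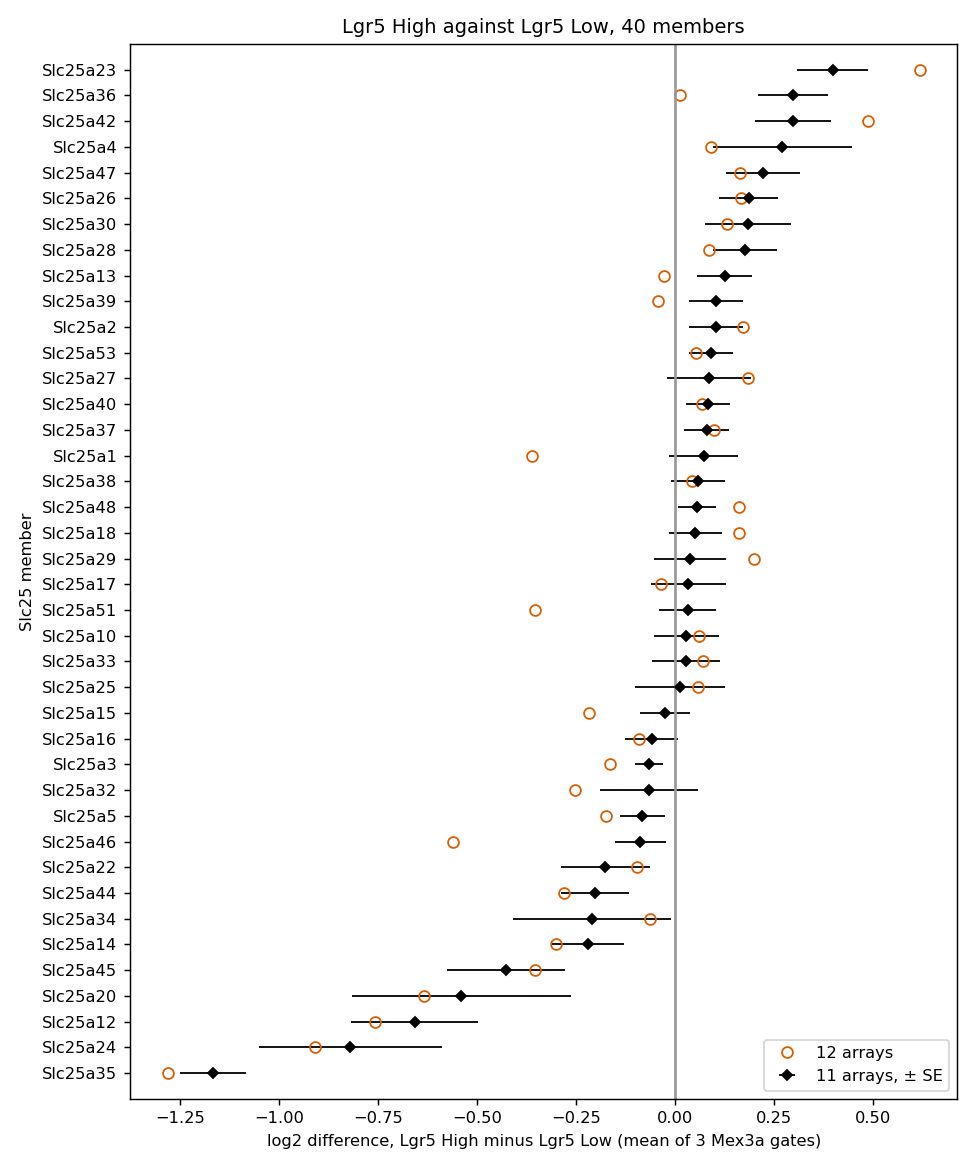
For each of the 40 Slc25 members (rows), the horizontal axis gives the log2 difference of Lgr5 High minus Lgr5 Low cells, averaged over the Mex3a gates, with 12 arrays (open circles) and with 11 arrays (diamonds, with SE). Slc25a35 stands lowest at -1.17 with 11 arrays and Slc25a23 highest at 0.40, and the open circles of Slc25a1, Slc25a51 and Slc25a46 lie left of their diamonds.

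Differentiated cell markers also moved with the Lgr5 gate, but not all in the same direction. With 12 arrays, 7 of 8 tuft and 8 of 10 enteroendocrine markers were called lower in Lgr5 High cells, as were 3 of 7 goblet and 1 of 8 enterocyte markers. The 4 measured Paneth markers all had positive differences (median 0.63), of which Itln1 was called higher. Of the stem cell markers, 5 of 8 were called higher. The enterocyte list averaged 8.19 to 10.48 on the 6 Lgr5 High arrays and 9.47 to 11.43 on the 6 Lgr5 Low arrays. Leukocyte lists lay between 6.00 and 6.92, and mesenchymal and endothelial lists between 5.31 and 6.04, on all 12 arrays, with the highest value of each on the array that stood apart. The part of these cell types in the values of Slc25a35, Slc25a24 and Slc25a12 was not tested.

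By role, the 6 adenine nucleotide and phosphate carriers held both Slc25a4 and Slc25a23, and no direction was shared among them. Between Mex3a High and Neg of the Lgr5 Low gate they ranged from -0.22 to 1.23 with a median of -0.08, and 1 of 6 was called with 11 arrays, where 5.29% of all genes were. The 9 amino acid carriers ranged from -0.87 (Slc25a13) to 0.21 (Slc25a12) with a median of -0.05, and 1 of 9 was called in the same fit. The 8 carriers of vitamins, cofactors and pyrimidine nucleotides ranged from -0.38 to 0.48, with 0 called.

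Slc25a1 and Slc25a10 are the measured di- and tricarboxylate carriers. Slc25a1 read 10.34 and 10.64 in Mex3a High Lgr5 Low cells and 10.35 and 10.45 in Mex3a Neg Lgr5 Low cells, and the group was not called in any comparison with 12 or 11 arrays. The 4 iron and glutathione carriers stayed within -0.32 and 0.20 for Mex3a High against Neg in Lgr5 Low cells, with 0 called. Slc25a39, a mitochondrial glutathione carrier, read 10.85 and 10.79 in Mex3a High Lgr5 Low cells and 10.84 and 10.90 in Mex3a Neg Lgr5 Low cells. The 3 probe sets of Slc25a37, the iron carrier mitoferrin 1, disagreed, at 0.20 for the one used and -0.63 and -0.36 for the others. Slc25a14, of the uncoupling-protein-like carriers, read 8.71 and 8.94 in Mex3a High Lgr5 Low cells and 8.37 and 8.56 in Mex3a Neg Lgr5 Low cells, and none of the 3 members of that group was called. Between these 2 populations 1.73% of all genes were called with 12 arrays, so 0 calls in groups this small say little about them. Slc25a51 read 9.72 and 9.77 in Mex3a High Lgr5 Low cells and 9.68 and 9.46 in Mex3a Neg Lgr5 Low cells.

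Genes that work beside the carriers were taken from a list of 33 (the TIM chaperones and insertion machinery, pyruvate carriers, uncoupling proteins, VDAC channels, sideroflexins, the calcium uniporter and enzymes of the shuttles), of which 25 were measured. With 12 arrays 0 of 25 were called in each of the 8 comparisons. With 11 arrays 3 of 25 were called between Mex3a High and Neg in Lgr5 Low cells (5.29% of all genes), 1 between Mex3a High and Low there (2.46%), 2 between the Lgr5 gates (5.12%) and 0 in the other 5 comparisons.

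Timm9, a small TIM chaperone that escorts carriers across the intermembrane space, read 6.27 and 6.31 in Mex3a High Lgr5 Low cells, 6.77 and 6.74 in Mex3a Low Lgr5 Low cells, and 7.02 and 7.41 in Mex3a Neg Lgr5 Low cells. The arrays of these populations did not overlap, and the High against Neg difference was -0.93 ± 0.14 (SE, 11 arrays, adjusted p = 0.00481). Mtch1, a carrier homologue of the outer membrane, read 11.68 and 11.75 in Mex3a High Lgr5 Low cells and 11.26 and 11.36 in Mex3a Neg Lgr5 Low cells, a difference of 0.41 ± 0.07 (SE, 11 arrays, adjusted p = 0.00853). Timm44, a subunit of the import motor, differed by -0.39 ± 0.09 (SE, 11 arrays, adjusted p = 0.0447). Mtch1 was also called against Mex3a Low, at 0.32 (adjusted p = 0.0453).

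Between the Lgr5 gates, Mdh2, the mitochondrial malate dehydrogenase of the malate-aspartate shuttle, differed by -0.20 ± 0.04 (SE, 11 arrays, adjusted p = 0.0303), and Mcu, the pore of the calcium uniporter, by -0.29 ± 0.07 (SE, 11 arrays, adjusted p = 0.0357). Neither Mdh2 nor Mcu was called with 12 arrays. Strips 1 and 3 each held a single Lgr5 gate, so most of this comparison runs between strips. The median difference of the 25 genes was -0.22 with 12 arrays, where that of all genes was 0.04, and -0.10 with 11 arrays, where that of all genes was 0.01.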

How the data were processed

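RNA from 6 populations of mouse small-intestinal cells, 2 biological replicates each, was hybridised to 12 Affymetrix arrays. Per the labels' protocols, each sample came from 2000 cells and was amplified for 22 cycles. Per the submitters' processing notes the authors used RMA, and the deposited table holds 1 log2 value per probe set and array. No source used here gives the RMA settings or a genome build. The number of arrays limits the precision, and no read depth applies.

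The deposited values were used unchanged. Gene names came from a probe table that lists 29449 of 45141 probe sets, 28898 of them with 1 gene and 551 with several. Each of 17097 genes was read from its brightest single-gene probe set (by the mean of 12 arrays), and 40 of them have a symbol that starts with Slc25a. RMA returns a value for probe sets without signal too, which compresses the differences of dim genes. The members, the role groups, the marker and partner lists and the tests were chosen with earlier results of these data known.

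Each gene was fitted as 6 population means without a block in limma 3.58.1 (R 4.3.3, eBayes with a mean-variance trend), with Benjamini-Hochberg adjustment over all 17097 genes in each of 8 comparisons. Calls are at adjusted p-values under 0.05. SE is limma's moderated standard error, and SD the spread of the n = 2 arrays of a population. The fit was repeated on 11 arrays, leaving out the MR793 array of Mex3a High Lgr5 High cells. That population then has its MR820 array alone, which is taken to vary like the others. The script was tested on simulated data with independent noise and no array that stood apart, which checks the code and not the calls.

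The labels give the same biological replicate to an array of every population, so the replicate pairs the populations. Replicate differences correlated over 0.1 in 14 of 15 pairs of populations (lowest -0.129, median 0.377), and in all 10 pairs without that array (0.362 to 0.549). Nothing in the labels says how many animals a replicate holds.

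Members named with values were those called with 12 or 11 arrays, the 2 highest and 2 lowest differences of each comparison among those of like sign in both replicates, and the member of each role group with the widest range of population means. Slc25a46, the paralogues Slc25a5 and Slc25a12, Slc25a37, the interaction of Slc25a35 and its difference between Mex3a High and Neg in Lgr5 High cells, and members called in a fit with the replicate block alone were named after their values were seen. Alternatives covered blocks for replicate and strip, each array left out, array weights, normalization, the variance model, the probe set per gene and a filter on dim genes. Motifs were sought on both strands of RefSeq promoters.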

Additional observations from a re-analysis of the deposited data

Results flagged for a closer look

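The Mex3a High against Neg differences of Slc25a4 and Slc25a13 differed between the Lgr5 gates by an interaction test in limma. The fit used 11 arrays and the replicate as a block, and it was chosen after seeing the data. It also called a larger share of all genes than the fits without a block, as given above. Slc25a4 had an interaction of -1.182 (adjusted p = 0.0266), which was not called with 11 arrays and no block (-0.955, adjusted p = 0.568) or with 12 arrays (-1.494, adjusted p = 0.865). Slc25a13 had an interaction of 0.883 (adjusted p = 0.03) and was likewise not called with 11 arrays and no block (0.923, adjusted p = 0.0523) or with 12 arrays. With 11 arrays and strip as a block the interactions were -0.94 (Slc25a4) and 0.901 (Slc25a13), and neither was called. On both sides of either interaction Mex3a Neg cells have 2 arrays, but with 11 arrays Mex3a High Lgr5 High cells have the MR820 array alone.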

How the results depend on the processing

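With 2 arrays per population, 1 array can decide a call. The share of all genes called moved with the setting too. For Mex3a High against Neg in Lgr5 Low cells it was 1.73% with 12 arrays and 2.03% with the replicate as a block. It was 1.27% there with both blocks, 5.44% with array weights and 3.12% with the Lgr5 Low arrays alone. For Mex3a High against Low in that gate, 0.889% became 2.7% with array weights and 1.21% with the Lgr5 Low arrays alone. The number of members called between Mex3a High and Neg in Lgr5 Low cells, 1 with 12 arrays, was 2 with the replicate as a block, 0 with replicate and strip as blocks, 3 with array weights, 2 with the Lgr5 Low arrays alone, and, with 11 arrays, 5 with the replicate as a block and 2 with strip as a block. For Mex3a High against Low in that gate, 0 became 2 with array weights, 1 with the Lgr5 Low arrays alone, and, with 11 arrays, 4 with the replicate block and 2 with strip. Between the Lgr5 gates, 1 became 0 with strip or both blocks, 6 with 11 arrays and the replicate block, and 0 with 11 arrays and strip. The interaction count, 0, became 2 with 11 arrays and the replicate block. The 2 block fits on 11 arrays were chosen after seeing the data, and the replicate block changed no other count of members with 12 arrays. Leaving out each array in turn gave 0 to 17 members (Mex3a High against Neg, Lgr5 High), 0 to 23 (High against Low, Lgr5 High), 0 to 3 (High against Neg, Lgr5 Low), 0 to 2 (High against Low, Lgr5 Low), 1 to 22 (Lgr5) and 0 to 17 (interaction), and 0 for both Low against Neg comparisons; 17, 23, 22 and 17 come from leaving out the MR820 array of Mex3a High Lgr5 High, which leaves the array that stood apart alone and calls 62.3%, 60.7%, 54.5% and 48.6% of all genes. Over all 40 members and 8 comparisons, 50 of 320 differences had another sign with 11 arrays than with 12, all of them in the Mex3a High comparisons of Lgr5 High cells (15 and 17), the interaction (13) or between the Lgr5 gates (5). Among the members named by rule for a comparison, 18 differences changed sign over the alternatives, none of them called in the fit with 12 arrays: with 11 arrays, Slc25a23 for High against Neg in Lgr5 High (-0.057) and the interaction (-0.146), and Slc25a4 for High against Low in Lgr5 High (0.175); with 11 arrays and the replicate block, Slc25a23 (-0.001) and Slc25a36 (0.001) for High against Neg in Lgr5 High, and Slc25a42 (-0.041) and Slc25a23 (-0.089) for the interaction; with 11 arrays and strip, Slc25a22 for High against Low in Lgr5 High (-0.193), Slc25a20 for Low against Neg in Lgr5 Low (0.04), and Slc25a42 (-0.034) and Slc25a23 (-0.047) for the interaction; with strip, Slc25a23 for Low against Neg in Lgr5 High (-0.075, and -0.041 with both blocks) and Slc25a20 for Low against Neg in Lgr5 Low (0.04); and Slc25a24 and Slc25a20 for that last comparison without the MR793 array of Mex3a Neg (0.243 and 0.271) or the MR820 array of Mex3a Low (0.026 and 0.183). Over all arrays left out in turn, these members ranged from -0.057 to 1.268 (Slc25a23, High against Neg, Lgr5 High), -0.904 to 0.175 (Slc25a4), -0.971 to 0.243 (Slc25a24), -0.909 to 0.271 (Slc25a20) and -0.146 to 1.179 (Slc25a23, interaction). The cause of these changes was not tested. Normalization, the variance model, the probe set per gene and the filter on dim genes moved no count of members called by over 1.5 times.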
